A study of Mus musculus with 6 samples.

Results

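Genes of the unfolded protein response were followed in mouse lumbar spinal cord after repeated intrathecal morphine. The set holds 33 genes, chosen by symbol: 15 chaperones and folding enzymes of the endoplasmic reticulum (ER), 6 stress sensors and transcription factors, 7 genes of ER-associated degradation (ERAD) and 5 targets of the factors ATF4 and CHOP. All 33 were found among the 52513 genes of the table, and 32 of them were among the 14614 genes that were tested. Trib3 was the member not tested, because it reached 1 FPKM (a fragment count corrected for transcript length and sequencing depth) in too few libraries.

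The material was total RNA of spinal cord segments L4-L5 from wild-type (WT) mice. Saline was given intrathecally in 3 samples, and morphine, 10 µg in 10 µL, in the other 3, in each case for 7 days. Strain, sex and age, and whether a library pooled several mice, are not stated in the labels. The sample descriptions list runs of 3, 3 and 2 numbers in each group, so each library may be a pool. The p-values therefore measure only the spread between these 6 libraries, which may be partly technical.

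Proteins that enter the ER are folded by HSP70 and HSP90 chaperones, lectin chaperones and protein disulfide isomerases, and those that fail to fold are extracted for degradation by ERAD. When unfolded proteins accumulate, the sensors ATF6, IRE1 and PERK leave the chaperone BiP and signal to the nucleus. Cleaved ATF6 and spliced XBP1 act mainly on chaperone and ERAD genes, while PERK raises translation of ATF4, which acts on amino acid, redox and CHOP target genes. Motor neurons and myelinating glia of the spinal cord make large amounts of membrane and secreted protein through this pathway.

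The promoters of the members were searched for the ER stress element ERSE, the sequence that ATF6 binds together with NF-Y. The element was searched as CCAAT, 9 bases of any kind and CCACG, on both strands, in windows from 250 bases before to 50 bases after each RefSeq start (GRCm38.p6). It was present in 39 of 32851 windows of the table (0.119%) and in 9 of the 29 members with a window. Of these, 7 were folding genes (of 13 with a window) and 2 were ERAD genes (of 6), with no match in the windows of 5 sensors and factors or of 5 ATF4 and CHOP targets. The stretches of the folding genes and of the ERAD gene Syvn1 are printed 5′ to 3′ on the strand that carries the element, with the CCAAT and CCACG parts in capitals.
Hspa5, chr2:34772020-34772048, plus strand: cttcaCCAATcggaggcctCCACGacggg
Hsp90b1, chr10:86705633-86705661, minus strand: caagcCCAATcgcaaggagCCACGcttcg
Hsp90b1, chr10:86705528-86705556, plus strand: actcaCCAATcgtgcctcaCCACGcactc
Calr, chr8:84847070-84847098, plus strand: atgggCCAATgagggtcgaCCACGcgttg
Canx, chr11:50325795-50325823, minus strand: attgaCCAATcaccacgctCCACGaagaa
Pdia6, chr12:17266486-17266514, plus strand: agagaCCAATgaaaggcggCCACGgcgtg
Creld2, chr15:88819515-88819543, minus strand: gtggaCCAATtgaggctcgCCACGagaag
Dnajc3, chr14:118937822-118937850, plus strand: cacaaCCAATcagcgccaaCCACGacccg
Syvn1, chr19:6046527-6046555, plus strand: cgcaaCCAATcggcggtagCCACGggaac

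The Hspa5 element began 65 bases before the RefSeq start. The GENCODE gene model of Hspa5 begins further upstream, so by that annotation the element lies inside the gene. Hsp90b1 was the member with a pair of exact elements in its window, beginning 212 and 107 bases before the start. The nearer of them was on the opposite strand to the gene. A shorter relative, ERSE-II (ATTGG, 1 base and CCACG), was in 12 of the 32851 windows (0.0365%), among them those of Dnajb11 and Herpud1. The ATF4 element, searched as TGATGCAA on both strands, was in 294 windows (0.895%), among them those of Herpud1 and Chac1. These sequences show which member carries which element, with the matching bases in capitals.
Dnajb11, chr16:22857843-22857871, plus strand: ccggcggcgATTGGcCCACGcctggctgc
Herpud1, chr8:94386368-94386396, plus strand: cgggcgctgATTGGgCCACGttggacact
Chac1, chr2:119351041-119351064, minus strand: ggcaggagTGATGCAAcggcaggg

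Herpud1 was the member whose window held both an ERSE-II and an ATF4 element. The 250 bases before its start are printed because they carry both of these elements. No annotated exon lies in this stretch. The capitals mark the ATF4 element, which reads in reverse on the printed strand, and then the ATTGG and CCACG parts of the ERSE-II.
Herpud1, chr8:94386179-94386428, plus strand: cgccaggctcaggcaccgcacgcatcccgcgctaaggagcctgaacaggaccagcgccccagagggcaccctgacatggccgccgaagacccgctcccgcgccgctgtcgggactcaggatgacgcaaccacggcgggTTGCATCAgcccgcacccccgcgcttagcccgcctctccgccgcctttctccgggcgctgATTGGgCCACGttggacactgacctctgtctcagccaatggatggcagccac

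The XBP1-binding element UPRE, searched as TGACGTGG, was in 222 windows (0.676%) and in no window of a member. A match to these letters is a description of the sequence and does not show binding.

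The depth, estimated from the steps between low FPKM values, was 21.2 to 26.1 M fragments per library with saline and 17.8 to 19.9 M with morphine. Each morphine library was thus shallower than each saline library, and the part of depth in the differences was not tested. Spinal cord markers were present in all libraries, led by the myelin gene Mbp, the neuronal gene Snap25 and the astrocyte gene Aldoc. Column totals were 662470 to 670280 FPKM with saline and 720234 to 741145 FPKM with morphine. In the whole table, limma called 82 of 14614 genes lower (0.561%) and 138 higher (0.944%) after morphine at an adjusted p under 0.05. In bulk tissue, fewer cells of a type and less RNA per cell cannot be told apart.

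In saline, the members spanned from 0.69 FPKM for Trib3 to 256 FPKM for Hspa5, as means of 3 libraries. The order at the top was Hspa5, Calr, Hsp90b1 and Canx, and the saline ranges of these 4 neighbours did not overlap. Pdia3 and Manf followed with overlapping ranges, 119.80 to 123.43 FPKM and 108.24 to 121.69 FPKM. Atf4, at 91.4 FPKM, was the most abundant gene outside the folding group, and Herpud1, at 67.6 FPKM, led the ERAD genes. The membrane sensors were scarce on this per-length scale. Eif2ak3, which encodes PERK, stood at 7.80 FPKM, Atf6 at 6.48 FPKM and Ern1, which encodes IRE1, at 1.52 FPKM. From Syvn1 (17.7 FPKM) down to Edem1 (5.76 FPKM), each gene's saline range overlapped that of its neighbour in the order.

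**Figure D1:**
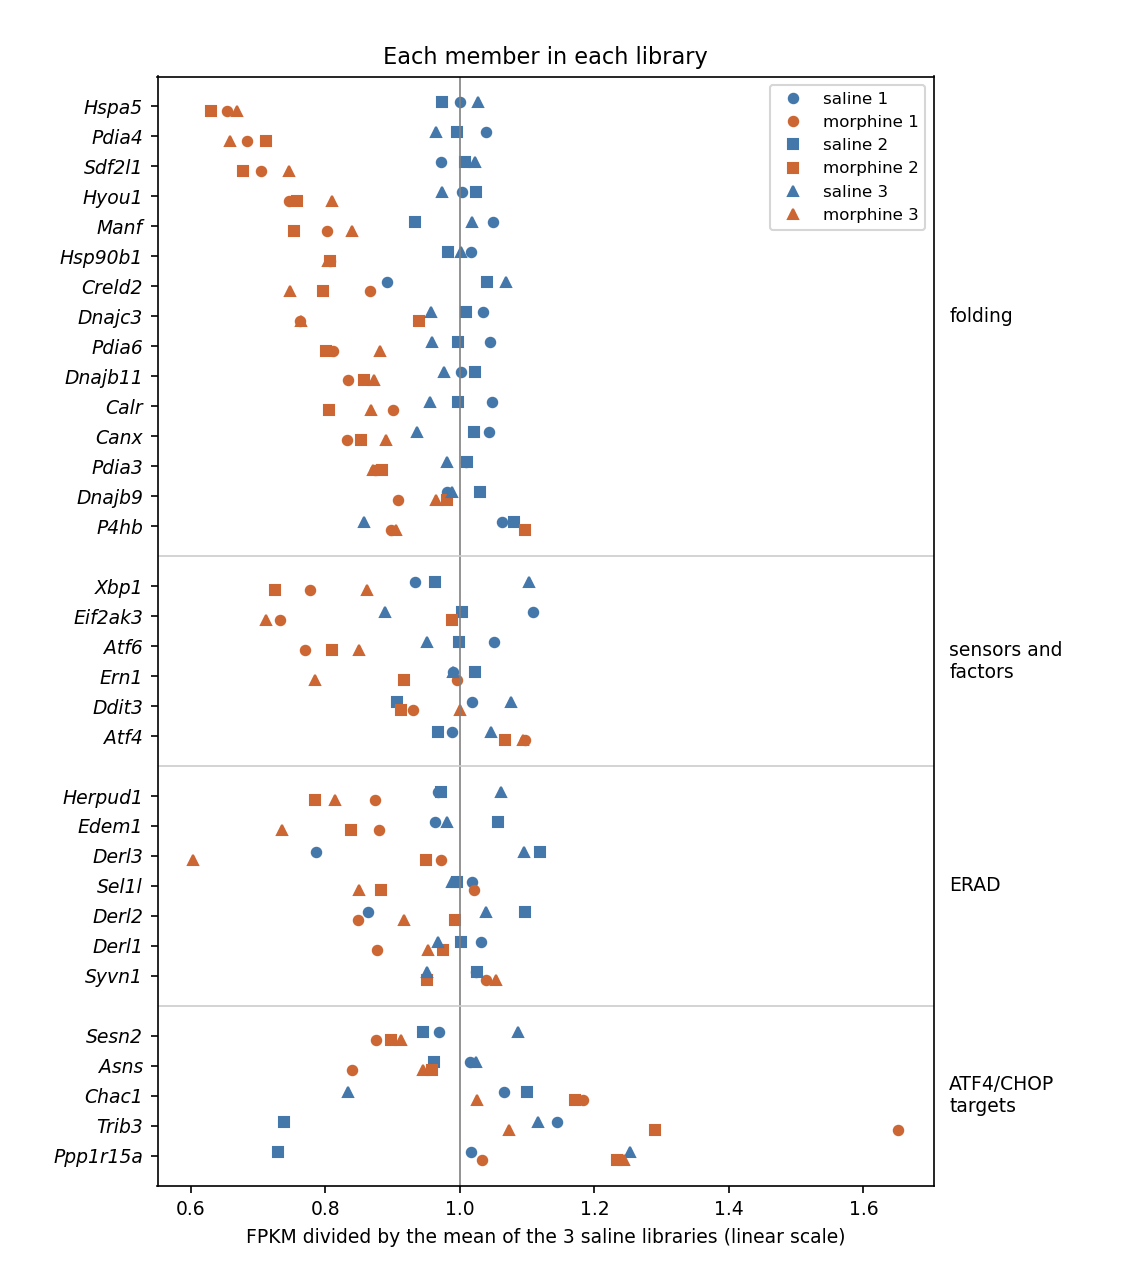
FPKM of each of the 33 members in every library, divided by the mean of the 3 saline libraries on a linear axis, with blue for saline, orange for morphine, marker shapes for libraries 1, 2 and 3 and the genes grouped by role. Hspa5 has its morphine points furthest left among the folding genes (161 to 171 FPKM against a saline mean of 256 FPKM), while the points of P4hb, Syvn1 and Ddit3 are mixed.

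Libraries of one group lay close together for these genes. The median coefficient of variation of the 15 folding genes was 3.72% in saline and 4.42% in morphine. The same medians over 7571 tested genes with a mean of at least 10 FPKM were 6.10% and 7.28%.

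After morphine, 5 of the 15 ER folding genes fell (limma): Hspa5, Pdia4, Sdf2l1, Hsp90b1 and Hyou1. Over all tested genes, 0.561% were called lower. All 15 folding genes had a negative log2 difference, as did 53.1% of all tested genes, and 13 of the 15 had an unadjusted p under 0.05. No member of the other roles was called in either direction. The median log2 difference (morphine minus saline, log2(FPKM + 1)) was -0.27 over the folding genes and -0.22 over the 32 tested members, against -0.02 over all 14614 genes. At an unadjusted p under 0.05, 17 of the 32 members were lower and none higher, where 11.1% of all tested genes were lower. In 19 of the 32, all morphine values lay below all saline values, which held for 15.7% of all tested genes.

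Hspa5 encodes BiP, the ER HSP70 that binds unfolded chains and holds the sensors inactive. It lies at chr2:34771970-34777547 on the plus strand of mm10. Its values were 256.05, 249.26 and 263.09 FPKM in saline 1, 2 and 3 and 167.50, 161.37 and 171.09 FPKM in morphine 1, 2 and 3. The highest morphine library was far below the lowest saline library, and the libraries within each group differed little. Means were 256 ± 6.92 and 167 ± 4.92 FPKM (SD, n = 3 each), a level 1.54-fold lower after morphine. On the log2 scale Hspa5 fell by 0.62 (SE 0.05, limma adjusted p = 0.0141), and it had the fourth smallest p of the table.

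Pdia4, a protein disulfide isomerase of the BiP complex, stood at 27.08, 25.97 and 25.15 FPKM in the saline libraries and 17.83, 18.55 and 17.16 FPKM in those given morphine. Sdf2l1, which works with BiP and its J-domain partners, stood at 28.37, 29.41 and 29.85 FPKM with saline, against 20.55, 19.79 and 21.78 FPKM with morphine. For both genes the groups were well apart. Means of Pdia4 were 26.1 ± 0.969 and 17.8 ± 0.695 FPKM, and those of Sdf2l1 29.2 ± 0.760 and 20.7 ± 1.004 FPKM (SD, n = 3 each). Pdia4 fell by 0.52 on the log2 scale (limma adjusted p = 0.0375) and Sdf2l1 by 0.48 (adjusted p = 0.0434).

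Hsp90b1, the ER HSP90 known as GRP94, was at 197.93, 191.15 and 194.81 FPKM in saline. After morphine it was at 157.17, 156.97 and 156.56 FPKM, the tightest morphine group of the set. Hyou1, an HSP110-type exchange factor for BiP, was at 29.77, 30.41 and 28.92 FPKM in the saline libraries and 22.14, 22.51 and 24.05 FPKM in those given morphine. Neither gene's groups overlapped. Means of Hsp90b1 were 195 ± 3.39 and 157 ± 0.311 FPKM (SD, n = 3 each). Hsp90b1 fell by 0.31 (limma adjusted p = 0.0456) and Hyou1 by 0.36 (adjusted p = 0.0465), both on the log2 scale and both close to the threshold. An opposite-strand gene, 1810014B01Rik, shares 10.3% of the exonic length of Hsp90b1, and the strand setting of the counting is not given in the sources.

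The number of calls depended on single libraries. When saline 1, saline 2, saline 3, morphine 1 or morphine 3 was left out, no member passed in limma, with 14 to 17 members lower and 0 to 2 higher at an unadjusted p under 0.05. Without morphine 2, 6 members passed, with Dnajc3 added. Over these 6 fits the log2 difference of Hspa5 stayed between -0.64 and -0.59, with limma adjusted p from 0.0142 to 0.111. With no filter on low genes or without the intensity trend, Hspa5 was the only member to pass. In these fits 2 and 22 genes of the whole table were called lower. With columns rescaled to an equal total 15 members passed, where 853 genes of the whole table were called lower, against 82 in the main fit. Calls over all genes also changed when a library was left out, as given in the section on processing. With the length trend removed, Hsp90b1 (adjusted p = 0.0565) and Hyou1 (adjusted p = 0.0742) no longer passed, and Hyou1 was also lost after quantile normalization (adjusted p = 0.0543) and with a filter of a mean of at least 1 FPKM (adjusted p = 0.0511).

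The other 10 folding genes did not pass, and 8 of them had every morphine value below every saline value, as did 15.7% of all tested genes. Manf, a secreted ER stress protein with neurotrophic action, was at 121.69, 108.24 and 118.01 FPKM with saline, against 93.07, 87.35 and 97.29 FPKM with morphine. Its log2 difference was -0.32 (limma adjusted p = 0.0616, 95% interval -0.48 to -0.16), and Dcaf1, on the opposite strand, shares 4.14% of its exonic length. Calr and Canx encode calreticulin and calnexin, the lectin chaperones of glycoproteins. Calr was at 234.67, 223.11 and 213.83 FPKM in the saline libraries and 201.70, 180.41 and 194.29 FPKM in those given morphine. Canx was at 145.08, 142.03 and 130.27 FPKM with saline, against 115.79, 118.58 and 123.85 FPKM with morphine. Both differed by -0.22 on the log2 scale, with limma adjusted p = 0.103 and 0.0968.

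Among the disulfide isomerases, Pdia3 had the narrowest groups. It was at 123.14, 123.43 and 119.80 FPKM in the saline libraries and 106.62, 107.94 and 106.26 FPKM in those given morphine, with no overlap and a log2 difference of -0.19 (limma adjusted p = 0.0771). Pdia6 was at 62.16 to 67.73 FPKM with saline and 51.88 to 57.13 FPKM with morphine, a log2 difference of -0.26 (adjusted p = 0.0750). In both isomerases every morphine library was under every saline library.

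Dnajb11 and Dnajc3 are J-domain cochaperones that pass substrates to BiP. Dnajb11 was at 36.77 to 38.49 FPKM with saline and 31.38 to 32.86 FPKM with morphine, a log2 difference of -0.22 (limma adjusted p = 0.0774). Dnajc3 was at 15.03 to 16.24 FPKM with saline and 11.97, 14.75 and 12.00 FPKM with morphine, a log2 difference of -0.27 (adjusted p = 0.155). Morphine 2 was the high library of Dnajc3 in that group and came close to the saline range. Creld2, a disulfide isomerase-like ER protein, was at 15.35 to 18.37 FPKM with saline and 12.86 to 14.91 FPKM with morphine (log2 difference -0.30, adjusted p = 0.122), again without overlap.

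The folding genes whose groups overlapped were P4hb and Dnajb9. P4hb, a disulfide isomerase that is also a subunit of prolyl 4-hydroxylase, was at 78.31, 79.59 and 63.15 FPKM with saline, against 66.11, 80.81 and 66.70 FPKM with morphine. Its high libraries were saline 1, saline 2 and morphine 2, and its log2 difference was -0.05 (95% interval -0.32 to 0.23, limma adjusted p = 0.839). Dnajb9, the J-domain protein ERdj4, was at 39.96, 41.97 and 40.25 FPKM in the saline libraries and 36.96, 39.96 and 39.27 FPKM in those given morphine. Its interval, -0.21 to 0.07 around a log2 difference of -0.07, did not reach the difference of Hspa5.

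**Figure D2:**
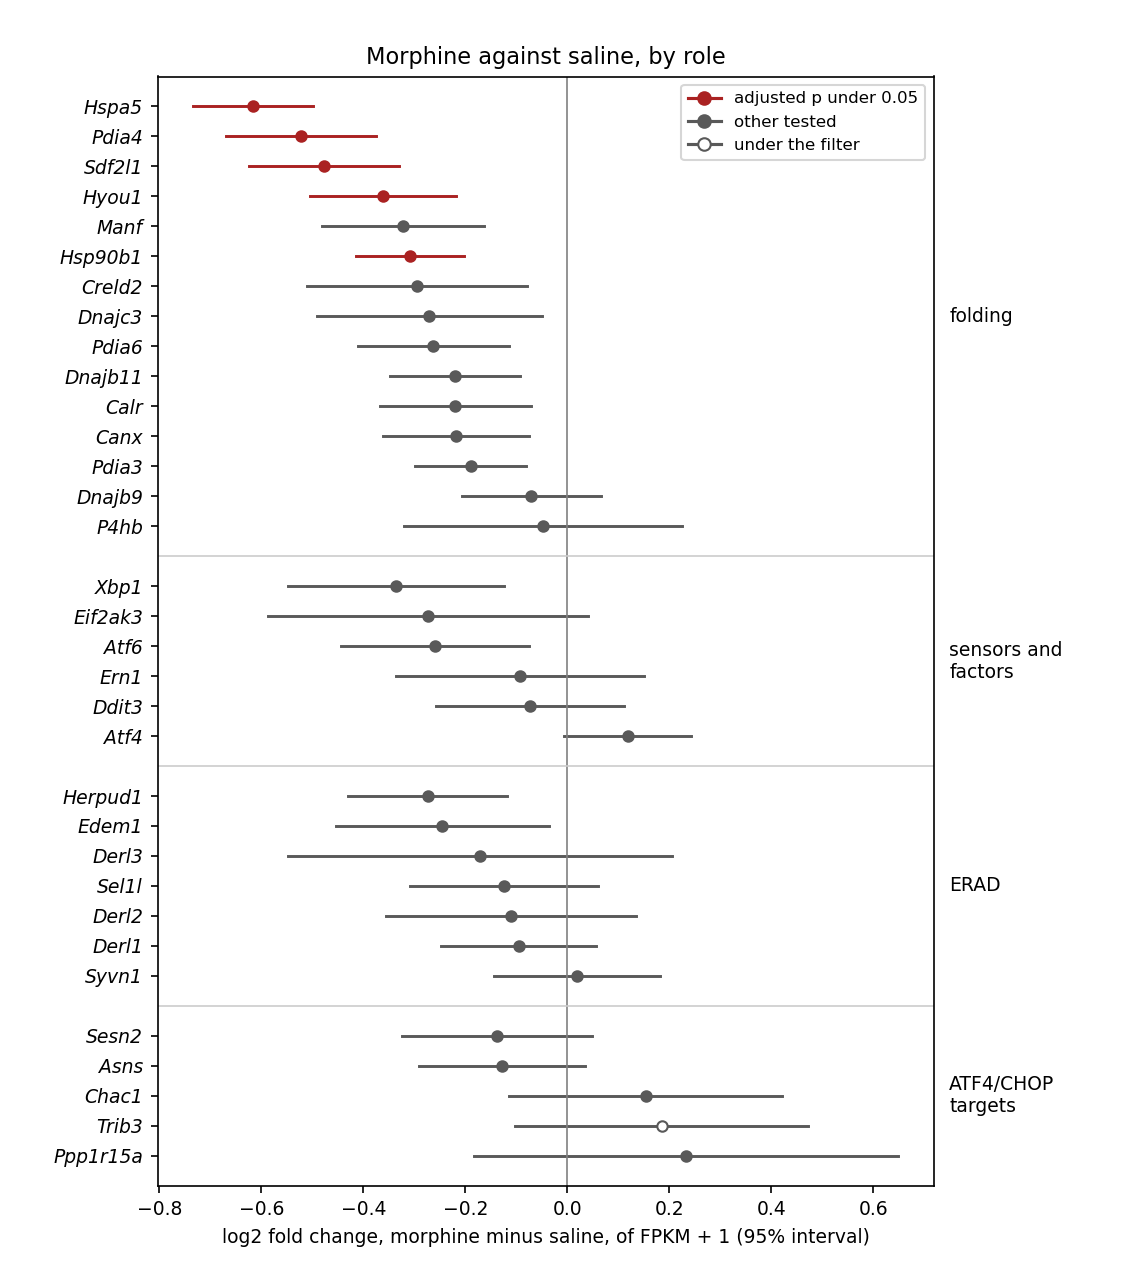
Log2 difference of log2(FPKM + 1), morphine minus saline, for each member, with 95% limma intervals and genes grouped by role; red marks an adjusted p under 0.05 and an open point the untested Trib3. The 5 red points all belong to folding genes and run from -0.62 for Hspa5 to -0.31 for Hsp90b1, while ATF4 and CHOP targets lie on both sides of 0.

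Of the 6 sensors and factors, 5 had a negative log2 difference and none passed, with 2 lower and none higher at an unadjusted p under 0.05 (limma) and a median of -0.18. Xbp1, the factor whose mRNA is spliced by IRE1, was at 52.52, 54.21 and 62.04 FPKM with saline, against 43.73, 40.82 and 48.48 FPKM with morphine. The groups did not overlap, and the log2 difference was -0.34 (limma adjusted p = 0.0907, 95% interval -0.55 to -0.12). These gene-level values do not separate spliced from unspliced Xbp1. Atf6 was at 6.81, 6.47 and 6.16 FPKM in the saline libraries and 4.99, 5.25 and 5.51 FPKM in those given morphine, without overlap, a log2 difference of -0.26 (adjusted p = 0.114).

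Atf4, the factor downstream of PERK, was at 90.29, 88.38 and 95.61 FPKM with saline, against 100.34, 97.56 and 100 FPKM with morphine, so all morphine values were above all saline values, as in 13% of all tested genes. The log2 difference was 0.12 (limma adjusted p = 0.243), and it was -0.01 with the columns rescaled to an equal total, so no direction is given for Atf4. Ddit3, which encodes CHOP, was at 46.68, 41.56 and 49.39 FPKM in the saline libraries and 42.67, 41.87 and 45.87 FPKM in those given morphine, with mixed groups and a log2 difference of -0.07 (adjusted p = 0.618). A second Ddit3 gene model on the same strand shares 6.13% of its exonic length, and Mars, on the opposite strand, 3.97%.

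The sensors PERK and IRE1 showed no separation of the groups. Eif2ak3 (PERK) was at 8.64, 7.82 and 6.93 FPKM with saline, against 5.71, 7.70 and 5.55 FPKM with morphine. Morphine 2 lay among the saline libraries while the other 2 morphine libraries were lower, and the log2 difference was -0.27 (limma adjusted p = 0.280). An opposite-strand gene model, Gm43292, shares 8.05% of its exonic length. Ern1 (IRE1) was at 1.5, 1.55 and 1.5 FPKM in the saline libraries and 1.51, 1.39 and 1.19 FPKM in those given morphine, a log2 difference of -0.09 with an interval of -0.34 to 0.15. The activity of PERK and IRE1 is set at the protein level and was not measured here.

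None of the 7 ERAD genes passed. Their log2 differences were negative in 6, with 2 lower and none higher at an unadjusted p under 0.05 (limma), and the median was -0.12. Herpud1, a membrane protein that assembles the ERAD complex and whose promoter is printed here, was at 65.48, 65.69 and 71.74 FPKM in saline. In morphine it was at 59.13, 53.11 and 55.06 FPKM, with no overlap and a log2 difference of -0.27 (adjusted p = 0.0757). Edem1, which hands misfolded glycoproteins to ERAD, was also apart, at 5.55 to 6.09 FPKM with saline, against 4.24 to 5.07 FPKM with morphine (log2 difference -0.25, adjusted p = 0.169).

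Syvn1 encodes HRD1, the ubiquitin ligase at the core of ERAD. It was at 18.11, 18.13 and 16.84 FPKM with saline, against 18.37, 16.84 and 18.63 FPKM with morphine. The groups were mixed, and the log2 difference of 0.02 had an interval of -0.14 to 0.18 (limma adjusted p = 0.895) and became -0.10 with the columns rescaled to an equal total. Sel1l, the adaptor of HRD1, was at 33.22 to 34.22 FPKM with saline and 28.57 to 34.36 FPKM with morphine, a log2 difference of -0.12 (adjusted p = 0.392). The derlins, membrane proteins of the extraction channel, differed by -0.10 (Derl1), -0.11 (Derl2) and -0.17 (Derl3), with adjusted p from 0.428 to 0.572, and their groups overlapped. Derl3 rested on an estimated 27 to 70 fragments per library.

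No ATF4 or CHOP target passed in either direction, and none of the 4 tested had an unadjusted p under 0.05 (limma). Their median log2 difference was 0.01. Asns, asparagine synthetase, was at 53.41, 50.60 and 53.95 FPKM in the saline libraries and 44.24, 50.47 and 49.78 FPKM in those given morphine, where the highest morphine value was just under the lowest saline value (log2 difference -0.13, adjusted p = 0.323). Sesn2, a stress-induced inhibitor of mTORC1 signalling, was at 6.65 to 7.65 FPKM with saline, against 6.16 to 6.42 FPKM with morphine (log2 difference -0.14, adjusted p = 0.352). Chac1, a glutathione-degrading enzyme, was at 6.30, 6.5 and 4.93 FPKM with saline, against 6.99, 6.92 and 6.06 FPKM with morphine, with overlap and a log2 difference of 0.15 (adjusted p = 0.466).

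Ppp1r15a, which encodes GADD34, the phosphatase subunit that ends eIF2α phosphorylation, varied most between saline libraries among the targets, with a coefficient of variation of 26.2%. It was at 10.77, 7.73 and 13.28 FPKM in the saline libraries and 10.94, 13.07 and 13.18 FPKM in those given morphine, and its log2 difference of 0.23 had an interval of -0.18 to 0.65 (limma adjusted p = 0.478). Trib3, a pseudokinase induced by ATF4 and CHOP, was at 0.79, 0.51 and 0.77 FPKM with saline, against 1.14, 0.89 and 0.74 FPKM with morphine. It rested on an estimated 24 to 31 fragments per saline library and 25 to 41 per morphine library. An exact two-sided permutation test of its FPKM gave p = 0.3, where 3 against 3 libraries cannot go below 0.1, and no difference was detectable at this depth.

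The roles were also set side by side within each library. The mean log2(FPKM + 1) of the folding genes came to 6.03, 6.02 and 5.98 with saline, against 5.70, 5.72 and 5.72 with morphine. That of the 4 tested targets came to 3.79, 3.66 and 3.82 with saline, against 3.73, 3.84 and 3.80 in morphine. The gap between the folding and target means was thus 2.24, 2.36 and 2.15 with saline and 1.97, 1.88 and 1.92 in morphine, with no overlap. Sensors and factors averaged 4.18 to 4.23 in saline and 4.04 to 4.08 in morphine, and ERAD genes 4.05 to 4.15 in saline and 3.90 to 4.01 in morphine. Since the members were chosen with results of these libraries known, no test is given for these means.

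**Figure D3:**
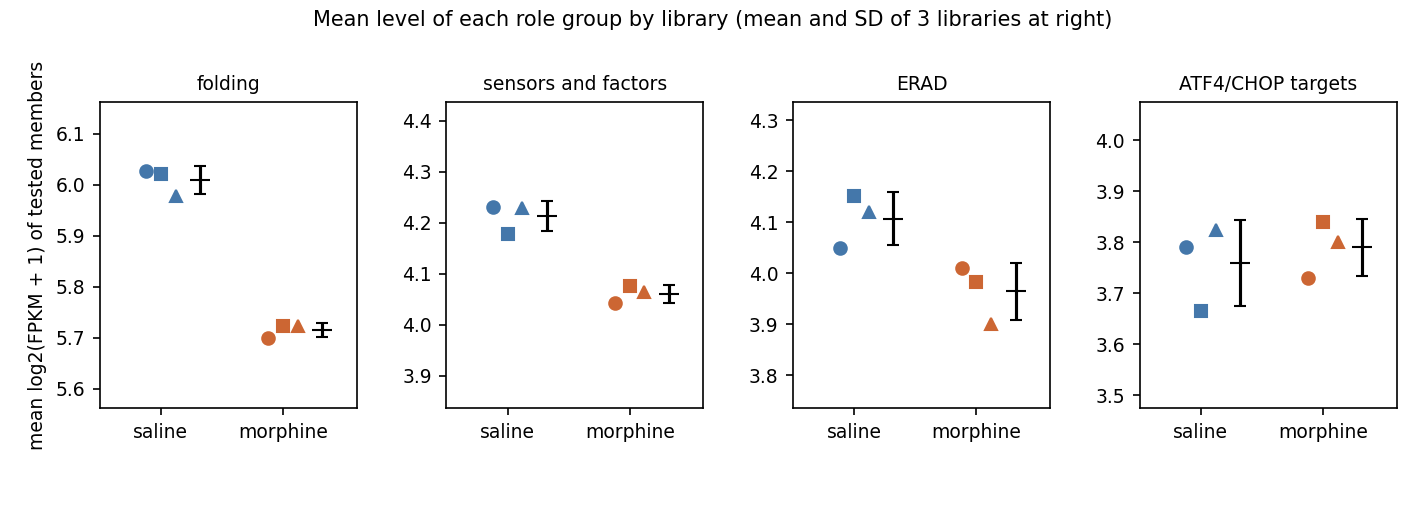
Mean log2(FPKM + 1) of the members of each role in every library, with marker shapes for libraries 1, 2 and 3 of each group and the mean and SD of 3 libraries at the right; each panel has its own axis range but the same span. The folding genes lie at 5.98 to 6.03 in saline and 5.70 to 5.72 in morphine, whereas the ATF4 and CHOP targets overlap at 3.66 to 3.84.

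Ratios taken inside a library do not depend on how its column was scaled. Hspa5 per Hsp90b1 stood at 1.29, 1.30 and 1.35 with saline and 1.07, 1.03 and 1.09 with morphine, so these chaperones changed unequally. Hspa5 per Atf4 came to 2.84, 2.82 and 2.75 with saline, against 1.67, 1.65 and 1.71 with morphine. Xbp1 per Atf4 came to 0.582, 0.613 and 0.649 with saline, against 0.436, 0.418 and 0.485 in morphine. In all 3 ratios the groups were apart. For the ratios to Atf4 this follows from the values of the single genes. Hspa5 and Xbp1 were lower in all morphine libraries and Atf4 higher, so the separation is no added support. With the columns rescaled to an equal total, the median over all genes became -0.13 on the log2 scale and that over the members -0.35, so the members lay below all genes by a similar distance under both scalings.

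Motor neuron RNA differed between libraries of the same group. The mean log2(FPKM + 1) of 11 tested motor neuron markers came to 4.27, 4.15 and 2.62 with saline and 3.03, 4.14 and 2.27 in morphine. The libraries rich in these markers, saline 1, saline 2 and morphine 2, were the 3 with the highest P4hb, and morphine 2 was the morphine library with the highest Eif2ak3 and Dnajc3. The same 3 libraries had the highest sums of neuronal, oligodendrocyte, astrocyte, and Schwann and sensory ganglion markers. Of the 3 most abundant neuronal markers, Nefm and Nefl were highest in these libraries. Snap25 was lowest in them (1498 to 1558 against 1640 to 1797 FPKM), and the other neuronal markers were not alike. The pattern of the sums was thus not particular to motor neuron markers, but it did not hold for each neuronal marker. The part of each cell type in P4hb was not tested. The summed marker level was 78.4 to 308 FPKM with saline and 62.1 to 304 FPKM with morphine, 10 of 11 tested markers had a negative log2 difference and none passed, with 1 lower and none higher at an unadjusted p under 0.05 (limma). With the motor neuron mean as a covariate, 9 members passed, the 5 named above with Manf, Pdia3, Xbp1 and Herpud1, and the log2 difference of P4hb was 0.05. Calls also rose over the whole table in that fit, to 387 lower and 526 higher from 82 and 138. The added member calls are thus not particular to the members.

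**Figure D4:**
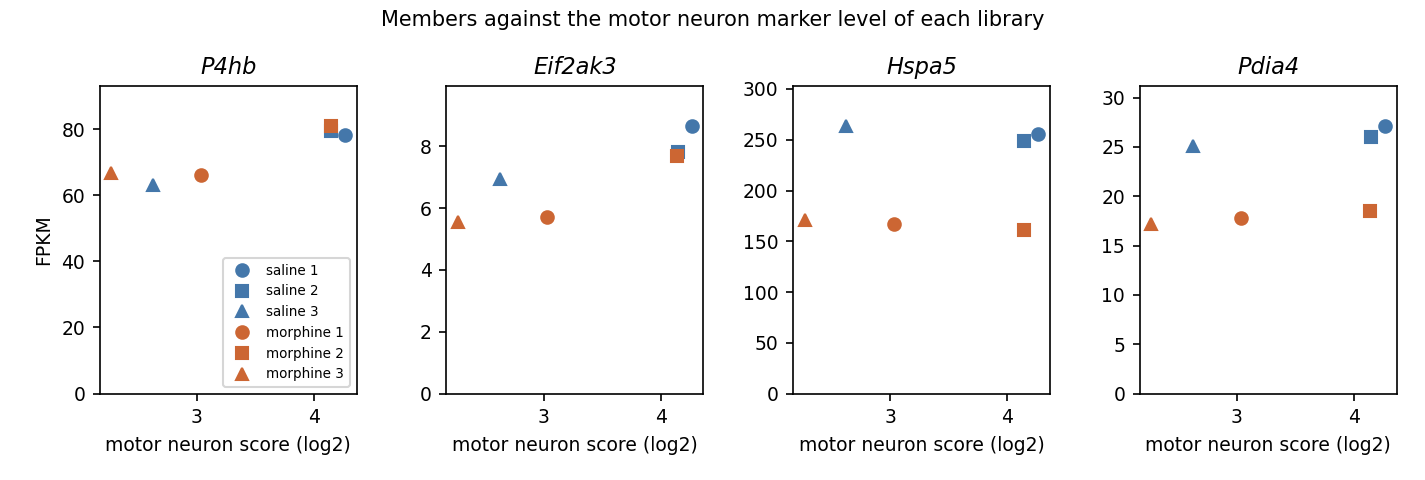
FPKM of P4hb, Eif2ak3, Hspa5 and Pdia4, chosen after their values were seen, in each library against the mean log2(FPKM + 1) of 11 motor neuron markers, with blue for saline, orange for morphine and marker shapes for libraries 1, 2 and 3. Hspa5 lies at 161 to 171 FPKM in morphine at both low and high marker levels, while P4hb is near 80 FPKM in the 3 libraries with marker means above 4.

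Erythroid markers had a negative log2 difference in 5 of 5, with Hbb-bt passing (65.9 ± 14.7 against 27.9 ± 4.24 FPKM, SD, n = 3 each) and sums of 757 to 1077 against 421 to 595 FPKM. Endothelial and pericyte markers had a negative log2 difference in 7 of 8, with none passing, 6 lower at an unadjusted p under 0.05 (limma), and sums of 81.6 to 83.5 against 64.7 to 78.9 FPKM. Over all tested genes, 53.1% were negative and 11.1% were lower at an unadjusted p under 0.05 (limma). Fibroblast markers, of cells that secrete much collagen, were negative in 7 of 7 with none passing and 0 at an unadjusted p under 0.05 (limma), and their sums were 70.2 to 105 against 17.7 to 87.0 FPKM. Plasma and B cell markers summed to 6.44 to 7.93 FPKM with saline and 4.79 to 7.04 FPKM with morphine, and no marker of these lists was at 0 in all libraries. Neuronal markers summed to 4044 to 5037 FPKM with saline and 3851 to 4658 FPKM with morphine, oligodendrocyte markers to 14810 to 21667 and 17039 to 23124 FPKM, and Schwann and sensory ganglion markers to 127 to 279 and 51.4 to 263 FPKM. Astrocyte markers summed to 2207 to 2649 FPKM with saline and 2468 to 2960 FPKM with morphine, and microglial markers to 241 to 264 and 225 to 268 FPKM. Ependymal markers, at sums of 16.5 to 21.3 against 18.9 to 25.2 FPKM, were positive in 4 of 4 tested. Of these, 1 passed as higher, Ccdc153 (0.24 ± 0.252 against 1.48 ± 0.308 FPKM, SD, n = 3 each, limma adjusted p = 0.0488), named after its value was seen. Ccdc153 and Cfap126 reached 1 FPKM only in morphine libraries, so they entered the test through the group where they were higher, and their direction is no support. The more abundant Foxj1 and Rarres2 each had a log2 difference of 0.03. Nuclear RNAs such as Malat1 summed to 974 to 1045 FPKM with saline and 1087 to 1618 FPKM with morphine. The part of these RNAs in the lower folding genes was not tested.

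Genes of the pathway outside the set gave 1 call. In 6 lists of other pathway genes, limma called 1 of 181 tested genes lower and none higher. Of the 181, 20 were lower and 18 higher at an unadjusted p under 0.05, and the median log2 difference was -0.05. Of all 14614 tested genes, 0.561% were called lower, and 1618 (11.1%) were lower and 1643 higher at an unadjusted p under 0.05 (limma). The calls of these lists were thus near the share of all genes. The called gene was Nucb1, a calcium-binding protein linked to ATF6 control, at 62.35, 54.91 and 62.91 FPKM in the saline libraries and 36.68, 44.52 and 42.82 FPKM in those given morphine. The groups were apart, and Nucb1 fell by 0.53 on the log2 scale (adjusted p = 0.0480). It was the 1 call among 42 further ER folding genes, whose median was -0.08.

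Genes of the translocon and of glycosylation gave no call among 35, with 4 lower and 7 higher at an unadjusted p under 0.05 (limma) and a median of -0.001. Srp14 and Srp9, subunits of the signal recognition particle, had higher means after morphine, 200 against 237 FPKM and 49.9 against 59.9 FPKM, without passing. Further ERAD genes gave no call among 33, with 5 lower and none higher at an unadjusted p under 0.05 (limma) and a median of -0.04. Faf2 and Ubxn4, which recruit the p97 extraction machine, led them, at 15.5 against 13.04 FPKM and 27.8 against 24.3 FPKM.

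None of 39 further ATF4 targets passed. Of these, 30 had a negative log2 difference, 4 were lower and 5 higher at an unadjusted p under 0.05 (limma), and the median was -0.08. Mars, methionyl-tRNA synthetase, was at 23.3 ± 0.0872 FPKM in saline and 28.5 ± 0.492 FPKM in morphine, and Psat1, of serine synthesis, at 80.7 ± 3.65 and 94.1 ± 4.34 FPKM (SD, n = 3 each). Neither passed. Of 15 further genes of the integrated stress response (initiation factor subunits, eIF2α kinases and regulators) none passed, with 2 lower and 2 higher at an unadjusted p under 0.05 (limma), led by Eif2s2 (53.9 against 62.6 FPKM) and Eif2b5 (22.5 against 28.3 FPKM). Of 17 further sensors and regulators none passed, with 2 lower and 1 higher at an unadjusted p under 0.05 (limma). Nfya, the NF-Y subunit A that binds the CCAAT part of the ERSE, was at 6.33 ± 0.185 FPKM in saline and 4.69 ± 0.0917 FPKM in morphine (SD, n = 3 each), and Map3k5 at 3.05 and 2.29 FPKM, neither passing.

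Heat shock genes outside the ER also included genes that fell. The list held 22 such genes, mostly cytosolic chaperones and cochaperones with the mitochondrial chaperonins and the factors Hsf1 and Hsf2. Of these, limma called 6 lower and none higher, with 19 negative and a median log2 difference of -0.28. Over all tested genes, 0.561% were called lower and 53.1% were negative, with a median of -0.02. Hspa1a and Hspa1b, near-identical copies of inducible HSP70 whose fragments the counting could split, were at 8.78 ± 3.26 and 19.9 ± 5.23 FPKM with saline, against 1.30 ± 0.0777 and 3.99 ± 0.492 FPKM with morphine (SD, n = 3 each). These levels were 6.74-fold and 4.99-fold lower (limma adjusted p = 0.0361 and 0.0149). Dnajb1, the J-domain partner of cytosolic HSP70, stood at 28.6 ± 2.04 FPKM in saline and 18.8 ± 0.255 FPKM in morphine, and Chordc1, a cochaperone of HSP90, at 29.0 ± 1.33 and 20.1 ± 0.993 FPKM (SD, n = 3 each).

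Members with and without the printed elements were set side by side as a description. The 11 members with an ERSE or ERSE-II had a median log2 difference of -0.26, with 10 negative and 9 with non-overlapping lower groups. The 17 tested members with a window and neither element had a median of -0.12, with 14 negative and 7 with non-overlapping lower groups. Over all tested genes, 53.1% were negative and 15.7% had non-overlapping lower groups. Within the folding genes, the 8 with an element all had separate groups and a median of -0.27, and 2 of them, Hspa5 and Hsp90b1, were called. The 5 folding genes with a window and neither element had a median of -0.19, and Pdia4 and Sdf2l1 were called among them. Called genes were thus found with and without an exact match in the window, and Syvn1, with an ERSE 44 bases before its start, lay at a log2 difference of 0.02. Elements with a mismatch or outside the window were not searched, so a gene without a match may still carry one.

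**Figure D5:**
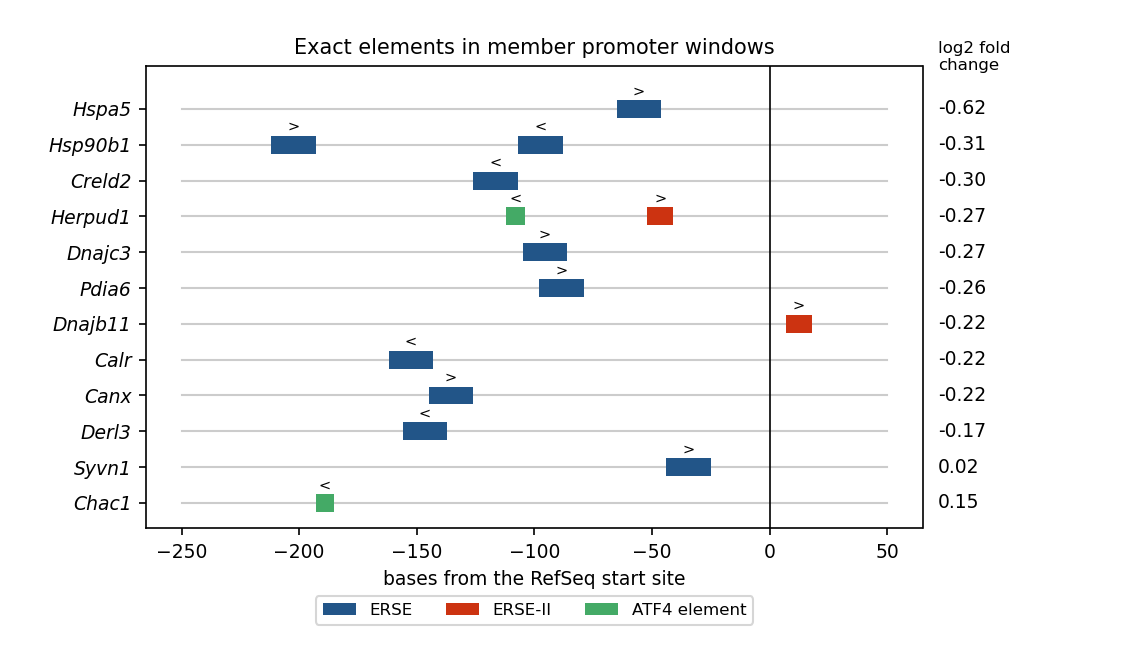
Position of exact ERSE, ERSE-II and ATF4 elements in the promoter windows of the 12 members that hold one, in bases from the RefSeq start, with arrowheads for orientation and the log2 difference of each gene at the right. Elements of folding genes lie from 212 bases before the start (Hsp90b1) to 7 bases after it (Dnajb11). Hspa5, with the largest difference, has 1 exact ERSE in its window, and elements with a mismatch were not searched.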

How the data were processed

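Total RNA of 3 saline and 3 morphine spinal cord samples was sequenced from stranded libraries (KAPA), per the labels' protocols. The submitters' processing notes name the mm10 build and the tools RSEM, STAR, Trimmomatic and bcl2fastq 2.19.0. Other versions, the annotation and strand settings are not given in the sources. The deposited table holds FPKM values computed by the authors, which are relative to the fragments of their library. Rescaling the columns to an equal total shifts all genes of a column.

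A gene was tested when 3 or more of the 6 libraries reached 1 FPKM. Values were taken as log2(FPKM + 1), which understates the fold of low genes, and compared under R 4.3.3 in limma 3.58.1 with an intensity trend, two-sided, with Benjamini-Hochberg adjustment over all 14614 tested genes and a threshold of 0.05. Intervals are at 95%. Trib3 was read by an exact permutation test. Depth was estimated from the spacing of low FPKM values: 77.4% to 80.1% of these lay within 0.05 of a whole fragment (or the rounding of the table), against 12.7% to 16.9% for evenly spread values. The estimate gives fragments of low members only as approximations. The fit was also run on simulated data with independent noise for each gene and library. Shifts shared by all genes of a library were not simulated, so this does not cover them. Gene positions and overlaps came from the GENCODE M21 annotation of mm10, and promoter sequences from RefSeq (GRCm38.p6), which held 29 of the 33 members; Manf, Hyou1, Atf6 and Derl1 had no window. Protein sequences were not analysed here. The rest was done in matplotlib 3.10.9, NumPy 2.4.6, pandas 2.3.3 and SciPy 1.17.1 under Python 3.11.15.

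The members and lists were chosen with earlier results of these data known, so no list is tested and lists are described by counts and medians. All members are named, with up to 4 called genes per further pathway list, or the 2 with the smallest p where none was called, and up to 3 of the most abundant genes per cell type list. Alternatives were 2 other pseudocounts, other filters and scalings, no intensity trend, removal of a length trend, the motor neuron mean as a covariate, a replicate block, and each library left out.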

Additional observations from a re-analysis of the deposited data

How the results depend on the processing

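Call counts over all genes and the calls, log2 differences and medians of the members were recomputed under 12 other settings. They were also recomputed in 6 fits without 1 library. Calls of genes outside the set, such as Nucb1 and Ccdc153, and counts of the other lists are given for the main setting only. The counts of called genes (82 lower and 138 higher, 5 members lower) depended on the setting. Genes called lower and higher were 17 and 12 with the length trend removed, 51 and 70 with a mean of at least 1 FPKM, 137 and 351 with the median ratio set to 0, 387 and 526 with the motor neuron covariate, 2 and 6 with no filter, 22 and 14 with no intensity trend, 55 and 47 after quantile normalization, and 853 and 101 after rescaling to an equal total (TPM). They were 7 and 17 with a replicate block and 5 and 6 with a replicate block and the length trend removed. Members called lower were 3 with the length trend removed, 9 with the motor neuron covariate, 1 each with no filter, no trend, the replicate block and the block with the length trend removed, and 15 after TPM. Leaving out 1 library gave 1 to 274 genes lower, 0 to 531 higher and 0 to 6 members lower.

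The median log2 difference of the members was -0.19 with the length trend removed, with or without the replicate block, -0.21 with the median ratio set to 0, -0.19 with the motor neuron covariate, -0.23 after quantile normalization, -0.35 after TPM and -0.24 to -0.19 without 1 library. The folding median was -0.31 after quantile normalization, -0.40 after TPM and -0.29 to -0.25 without 1 library. The sensor median was -0.15 with the covariate, -0.22 with a pseudocount of 0.1, -0.29 after TPM and -0.20 to -0.15 without 1 library, the ERAD median -0.25 after TPM and -0.21 to -0.11 without 1 library, and the target median 0.15 with no filter and -0.10 after TPM. Signs reversed for Atf4 (-0.0087 after TPM), Syvn1 (-0.10 after TPM, -0.0144 to 0.0617 without 1 library) and P4hb (0.0461 with the covariate, -0.15 to 0.0115 without 1 library). The cause of these shifts was not tested. The replicate numbers were not taken as pairs: same-numbered libraries correlated at -0.13, 0.16 and 0.29 in their deviations from the group means. Depth limits Trib3 and Derl3 most.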

Other observations

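Genes outside the set whose promoter window held an ERSE or ERSE-II were looked up as a description. Of 38 such genes, 16 were tested, 10 had a negative log2 difference, and limma called 1 lower (Nucb1) and none higher, with 2 lower and 2 higher at an unadjusted p under 0.05. Their median log2 difference was -0.01, beside -0.26 for the 11 members with an element.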
